A study of Mus musculus with 4 samples.

Results

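Imprinted genes are expressed mainly or wholly from the copy inherited from 1 parent, and many of them set growth before birth. Paternally expressed genes such as Igf2 tend to promote growth of the fetus, and maternally expressed genes such as Cdkn1c and Grb10 tend to restrain it. They lie in clusters, each governed by a control region whose DNA methylation was laid down in the sperm or the egg, and long noncoding RNAs such as H19 and Meg3 are expressed from the copy opposite to their protein-coding neighbours. In fetal mesenchyme, the tissue that gives rise to dermal fibroblasts, many of them are among the abundant transcripts and most decline after birth.

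A list of 41 imprinted mouse genes was matched to the gene names of 4 tables of messenger RNA levels. A value was found for 39 genes of 21328 coding and long noncoding gene units in all. Of the 39, 35 had an entry under their own name alone. The other 4 genes, H19, Meg3, Rian and Mirg, stand in entries that also name small RNAs processed from within the same transcripts, and those entries were taken as the genes. Commd1 stands in 1 entry together with its neighbours B3gnt2 and Gm12057 and was not used, and Kcnq1ot1 was not analysed here. By textbook assignment 19 of the measured genes are expressed from the paternal copy and 19 from the maternal copy. Gnas is complex, with transcripts of either or both copies counted in 1 entry. The tables hold no allele information, so which copy was transcribed in these cells was not measured. Some members, such as Ube3a, Slc22a3, Nap1l4, Copg2, Blcap and Ppp1r9a, are imprinted mainly in other tissues such as brain or placenta.

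The cells came from mouse embryos that carry an Axin2-LacZ reporter, Axin2 being a feedback target of Wnt/beta-catenin signalling, and dermal cells were sorted by that reporter. Collagenase at 1000 U/ml, hyaluronidase at 300 U/ml and 4% fetal bovine serum are given alike for all 4 groups. The foot cells are from E17.5 embryos and ventral skin, and the back cells are from E14.5 embryos. The libraries are foot Axin2-positive, foot Axin2-negative, back Axin2-positive and back Axin2-negative, with 1 library per group, so no difference below has a replicate check and there are no p-values. Site and stage changed together and cannot be told apart. The number of embryos per library, their sex and strain, and the dose of the reporter allele are not stated in the labels.

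Levels are FPKM, a count of fragments corrected for transcript length and library size, each followed in brackets by the lower and upper bound that the authors deposited. The bounds cover uncertainty inside 1 library and say nothing of differences between embryos. Their median half-width was 23.2% and 14.2% of the FPKM in the foot positive and negative libraries, and 9.04% and 9.93% in the back positive and negative libraries, over gene units of at least 5 FPKM. From the same bounds the foot libraries held about 0.162 (positive) and 0.352 (negative) times the fragments of the back positive library, and the back negative library about 0.881 times. The foot values are the less precise. Axin2 itself had 9.65 FPKM (7.10 to 12.5) in the library labelled foot positive and 12.9 FPKM (10.2 to 15.3) in that labelled foot negative. The bounds overlap, so Axin2 transcript does not order the foot libraries, and every direction given between them follows the labels alone. Back skin had 4.49 FPKM (3.89 to 5.09) in the positive and 3.13 FPKM (2.63 to 3.64) in the negative library. These bounds lie apart as deposited and overlap after the rescaling described below, so Axin2 transcript orders the back libraries on the deposited scale only.

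All 8 fibroblast markers were above 0 in every library, with summed levels of 7141 and 6714 FPKM in the foot positive and negative libraries and 4355 and 3070 FPKM in the back positive and negative libraries. Single fibroblast markers ran in both directions between the foot fractions, which the sums do not show. Col1a1 stood at 262 FPKM in the foot positive against 713 FPKM in the foot negative library, and Col1a2 at 2338 against 716 FPKM. Pdgfra stood at 40.2 FPKM in the back positive against 14.2 FPKM in the back negative library. Markers of other cells also differed between the sorted fractions, in both directions. Over 6 mast cell markers the sum was 2.17 FPKM in the foot positive against 265 FPKM in the foot negative library, and 24.6 FPKM in the back positive against 83.9 FPKM in the back negative library, with Mcpt4 and Fcer1a listed at 0 in all 4. Over 8 leukocyte markers the sums were 0.788 and 4.49 FPKM in the foot positive and negative libraries, where Ptprc, Cd52 and Lyz2 were listed at 0, and 4.67 and 15.7 FPKM in the back positive and negative libraries. Of 7 keratinocyte markers 4 had a value, and these summed to 7.38 FPKM in the foot positive library, where only Krt10 was above 0, against 0 in the foot negative library. In the back they summed to 26.0 FPKM in the positive against 8.16 FPKM in the negative library. Over 6 skeletal muscle markers the sums were 2.28 and 13.6 FPKM in the foot positive and negative libraries and 2.19 and 3.65 FPKM in the back, with Myod1 and Myog listed at 0 in the foot. Most of the foot negative sum was Tnnt1, at 0.978 FPKM in the foot positive against 12.6 FPKM in the foot negative library. Its log2 ratio was -2.51 with a half-width of 2.77, both as defined below. Des went the other way, at 1.30 against 0.740 FPKM. Of 5 erythroid markers 2 had a value, and these summed to 0 in both foot libraries. In the back they summed to 3.71 FPKM in the positive against 13.5 FPKM in the negative library. Most of this was Alas2, at 3.28 against 12.7 FPKM, past 2-fold. Endothelial, Schwann cell and melanocyte, and cartilage and tendon markers summed to at most 8.09 FPKM in any library. The part of these cells in the differences below was not tested. In bulk samples fewer cells of a type and less RNA per cell cannot be told apart.

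The imprinted genes spanned a wide range of levels. In all, 24 of the 39 reached 5 FPKM in at least 1 library and 15 stayed below it in every library. A handful carried most of the signal. The 5 highest members held 79.6% of the summed FPKM of the set in the foot positive library, 83.7% in the foot negative, 75.2% in the back positive and 83.5% in the back negative library. These were drawn from H19, Gnas, Cdkn1c, Igf2, Mest and Dlk1. The sum over the 39 genes was 3313 and 5208 FPKM in the foot positive and negative libraries, against 2165 and 2771 FPKM in the back positive and negative libraries. Paternally expressed members summed to 1174 and 1858 FPKM in the foot positive and negative libraries and to 1090 and 791 FPKM in the back. Maternally expressed members summed to 1540 and 2315 FPKM in the foot and to 641 and 536 FPKM in the back, in the same order of fractions. All these sums are of FPKM as deposited. The rescaling described below would put the foot positive sum of all members under the back negative one. It would also put the paternal sum of the foot positive library under that of the back positive library. The maternal sums would stay higher in the foot.

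**Figure D1:**
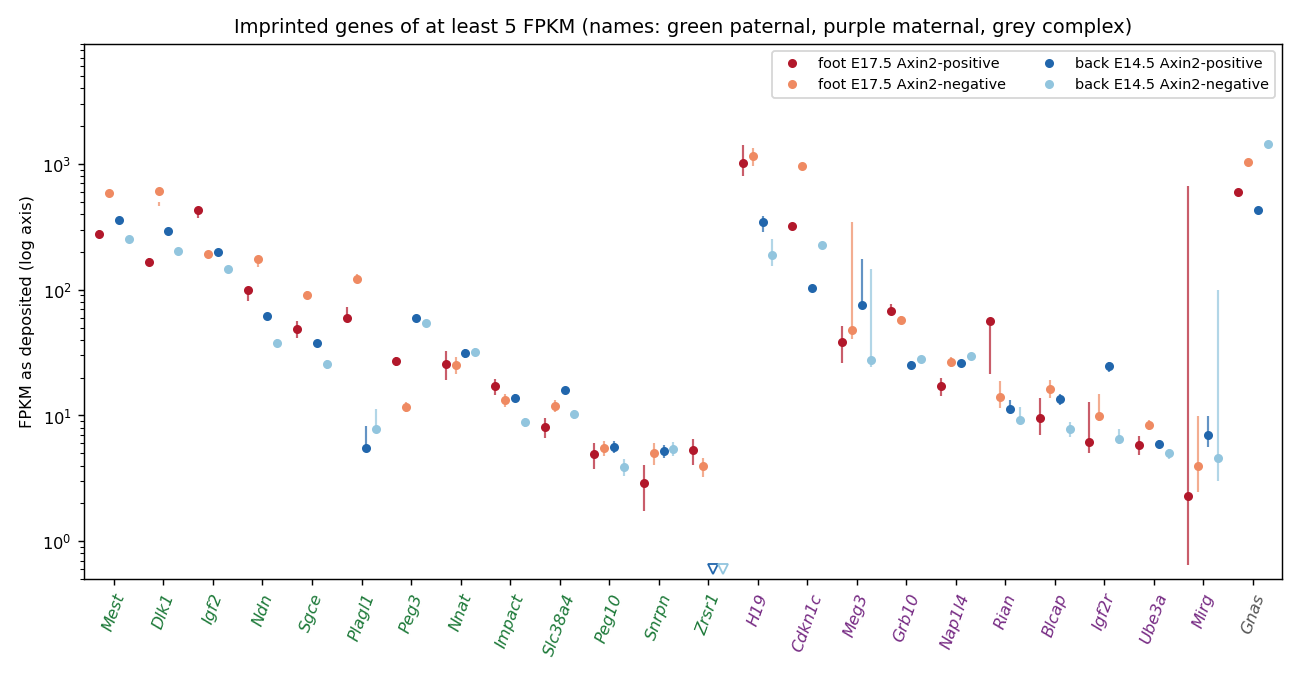
FPKM as deposited (log axis) of the 24 imprinted genes that reached 5 FPKM in any library, 1 point per library with the authors' bounds as a vertical line and triangles for genes listed at 0. H19 stands at 1012 and 1161 FPKM in the foot positive and negative libraries and at 343 and 189 FPKM in the back, and the bounds of Meg3 and Mirg span a wide range.

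Levels were compared as log2 ratios of rescaled FPKM plus 1, with a half-width from the authors' bounds after the ± sign. The rescaling divides each library by a median-ratio factor over the gene units of at least 5 FPKM in every library. A gene counts as past 2-fold when this log2 ratio reaches 1 in either direction and 1 of the pair of libraries holds at least 5 FPKM. Members below that level in both libraries are left out, so the counts are not over all members. Both values of a gene must also carry the deposited status OK, as those of all members did. Comparisons that share a library, such as the foot fractions and the positive libraries of foot and back, are not independent.

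Between the foot fractions, 23 members could be compared. Past 2-fold, 3 were higher in the positive library (Igf2, Rian and Peg3), beside 11.2% of all gene units. Another 2 were lower (Dlk1 and Cdkn1c), beside 10.8%. Together they are 21.7% of the members compared, beside 22.0% of all gene units, so the share was near the background. The bounds lay apart for all 5, and 18.9% of all gene units were past 2-fold with bounds apart. With FPKM as deposited, 3 were higher and 4 lower, Mest and Plagl1 being added, beside 8.58% and 15.6% of all gene units. Between the back fractions 23 members could be compared as well. Igf2r and Meg3, 2 members, were higher in the positive library, beside 4.28% of all gene units, and Cdkn1c and Gnas, also 2, were lower, beside 3.43%. Together they are 17.4%, beside 7.71% of all gene units. The bounds of the Meg3 values overlapped, so Meg3 is counted by its listed values and no direction is read for it. Those of the other 3 did not overlap, beside 7.51% of all gene units past 2-fold with bounds apart. As deposited the same 4 genes were past 2-fold, beside 6.21% (higher) and 2.52% (lower) of all gene units. Only Cdkn1c was past 2-fold in the same direction in both skins, 1 of 22 members compared in both, which is 4.55%, beside 1.13% of all gene units. This count rests on the foot labels. With them turned, 0 members would share a direction, and Cdkn1c would be opposite in the 2 skins.

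**Figure D2:**
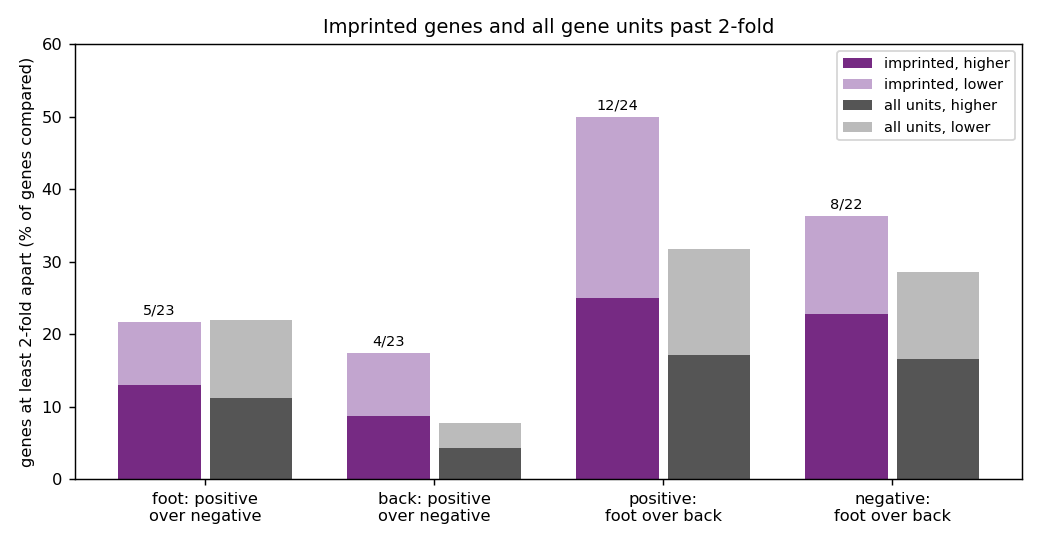
Share of the imprinted genes compared (purple, with their number above) and of all gene units (grey) that were at least 2-fold apart, split into higher and lower in the first-named library of each comparison. The imprinted share is 21.7% beside 22.0% between the foot fractions, and 50% beside 31.7% between foot and back for the positive fraction. The bars count Meg3 between the back fractions and Mirg between foot and back for the positive fraction, whose bounds overlap there.

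Igf2, the fetal insulin-like growth factor, is expressed from the paternal copy. Its entry lies on chromosome 7 of mm9, from 149836671 to 149852721. Igf2 stood at 428 FPKM (372 to 409) in the foot positive and 191 FPKM (180 to 203) in the foot negative library, the first of these above its own bounds. Back skin gave 199 FPKM (195 to 207) in the positive and 148 FPKM (144 to 154) in the negative library. The foot positive library was the high one, and the other 3 lay within a narrow range. The log2 ratio of positive over negative was 1.40 ± 0.11 in the foot and 0.21 ± 0.07 in the back. Foot over back gave 0.86 ± 0.08 for the positive fraction and -0.33 ± 0.10 for the negative fraction. As deposited these are 1.10 and 0.37, so the direction in the negative fraction depends on the scaling.

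Igf2r, the maternally expressed receptor that takes Igf2 up for degradation, had its high value elsewhere. It stood at 6.16 FPKM (5.03 to 12.9) and 9.96 FPKM (9.05 to 14.7) in the foot positive and negative libraries. For the back, the values were 24.6 FPKM (22.4 to 26.7) in the positive and 6.49 FPKM (5.97 to 7.77) in the negative library. The back positive library stood above the other 3, which lay close together. Positive over negative in the back was 1.59 ± 0.21 on the log2 scale, and foot over back in the positive fraction was -2.06 ± 0.80. The Igf2r gene overlaps Airn, its paternally expressed antisense RNA, which stood at 10.7 and 22.0 FPKM in the foot positive and negative libraries and at 2.36 and 2.96 FPKM in the back. Use of strand in the counting is not given in the sources used here, so reads of Igf2r and Airn may not be separable where they overlap. Igf2 exceeded Igf2r 69.5 times in the foot positive and 19.2 times in the foot negative library, and 8.07 times in the back positive and 22.7 times in the back negative library. The 69.5 is imprecise, since that Igf2 value lies above its own bounds (372 to 409) and the Igf2r bounds are wide (5.03 to 12.9).

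The Igf2 pathway holds other genes that bind or transmit the ligand, and 19 of the 20 on the list used here had a value. Between the foot fractions 3 of 11 compared were lower in the positive library (Igfbp5, Igf2bp2 and Igf1) and 0 were higher, beside 10.8% and 11.2% of all gene units. The median of the 16 that reached 1 FPKM was -0.04. Igfbp5, a secreted IGF binding protein, stood at 3.55 FPKM in the foot positive against 20.3 FPKM in the foot negative library. Igf2bp2, which binds Igf2 messenger RNA, stood at 3.04 against 10.7 FPKM in the same libraries. In the back 1 of 11, Pik3r1, was past 2-fold and higher in the positive library, beside 4.28% of all gene units, with a median of 0.07 over the list. As deposited 3 were higher there (Igfbp3, Igf1 and Pik3r1), beside 6.21%. Igf1 and Pik3r1 are named after their values were seen.

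Between foot and back this list had 3 higher and 4 lower of 12 for the positive fraction (median -0.31), beside 17.1% and 14.6% of all gene units. In the negative fraction it had 3 higher and 2 lower of 12 (median -0.33), beside 16.6% and 12.0%. The binding proteins Igfbp2, Igfbp3 and Igfbp6 were higher in the foot in both fractions, on either scaling. Igfbp3 had 78.3 FPKM in the foot positive against 20.2 FPKM in the back positive library, and 141 FPKM in the foot negative against 8.91 FPKM in the back negative library. Igfbp5 was the lower one in the foot, at 3.55 FPKM in the foot positive against 34.5 FPKM in the back positive library. Igf2bp3, an RNA binding protein of fetal tissue, stood at 1.94 FPKM in the foot positive against 9.94 FPKM in the back positive library. For the negative fraction Igfbp5 and Igf2bp3 are past 2-fold after rescaling only, and as deposited that comparison has 5 genes of the list higher and 0 lower, beside 38.0% and 4.68% of all gene units.

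Grb10 encodes an adaptor that dampens insulin and IGF receptor signalling and is maternally expressed outside the brain. It stood at 68.3 FPKM (65.3 to 76.9) and 57.6 FPKM (55.3 to 62.1) in the foot positive and negative libraries. Back libraries held 25.3 FPKM (24.0 to 27.0) and 28.3 FPKM (27.5 to 30.0) in the same order of fractions. Both foot values were above both back values as deposited. Foot over back was 1.16 ± 0.14 in the positive and 0.31 ± 0.10 in the negative fraction after rescaling, and 1.40 and 1.001 as deposited.

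Dlk1 encodes a transmembrane protein related to Notch ligands that holds back differentiation of fat and other mesenchymal cells. It is the paternally expressed gene at the head of the Dlk1-Dio3 cluster, on chromosome 12 from 110691033 to 110701546 (mm9). Dlk1 stood at 166 FPKM (154 to 178) in the foot positive and 614 FPKM (461 to 499) in the foot negative library, the second being above its own bounds. The back had 294 FPKM (291 to 304) in the positive and 202 FPKM (197 to 210) in the negative library. The foot fractions were the extremes, low in the positive and high in the negative library. Positive over negative was -1.64 ± 0.11 in the foot and 0.32 ± 0.06 in the back. Foot over back was -1.06 ± 0.11 in the positive and 0.89 ± 0.06 in the negative fraction.

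The other protein-coding genes of that cluster were barely detected. Rtl1, a gene derived from a retrotransposon, lay between 0.891 and 1.60 FPKM over the 4 libraries. Dio3, which encodes the enzyme that inactivates thyroid hormone, lay between 0.101 and 0.989 FPKM. The maternally expressed noncoding RNAs of the cluster were measured less firmly. Meg3 stood at 38.4 FPKM (26.0 to 51.6) and 47.7 FPKM (40.7 to 348) in the foot positive and negative libraries. Back skin gave 75.5 FPKM (73.1 to 177) in the positive and 27.6 FPKM (24.2 to 146) in the negative library. Its bounds overlap between the fractions of each skin, so the 2 fractions cannot be ordered. Foot over back in the positive fraction was -1.19 ± 1.08 with bounds apart after rescaling, and -0.96 as deposited, below 2-fold. Rian stood at 56.8 FPKM (21.5 to 51.7, below the value) and 14.01 FPKM (11.6 to 18.7) in the foot positive and negative libraries, and at 11.3 FPKM (10.7 to 13.3) and 9.28 FPKM (8.71 to 11.7) in the back. The foot positive value stood above the other 3, by 2.16 ± 0.51 over the foot negative library. Mirg stood at 2.29 FPKM (0.645 to 669) and 3.97 FPKM (2.48 to 9.87) in the foot positive and negative libraries, and at 7.05 FPKM (5.61 to 9.85) and 4.57 FPKM (3.03 to 99.9) in the back. Taken at the midpoint of its bounds, Mirg reverses its ratio of foot over back in the positive fraction, giving 5.04 in place of -1.48, so no direction is read for it.

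The entries of H19, Meg3 and Mirg name the microRNAs cut from these transcripts, and 15 mature sequences of 8 microRNA genes were found in the RefSeq table (GRCm38). Their 15 seeds, bases 2 to 8, are all different. The following 6 are shown with the seed in capitals, because they tell which small RNAs the long transcripts hold. The libraries were made from messenger RNA and give the level of the host transcript only.
mmu-miR-675-5p (H19): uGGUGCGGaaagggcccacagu
mmu-miR-675-3p (H19): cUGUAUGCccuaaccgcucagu
mmu-miR-770-5p (Meg3): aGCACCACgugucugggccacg
mmu-miR-1906 (Meg3): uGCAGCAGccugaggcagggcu
mmu-miR-369-3p (Mirg): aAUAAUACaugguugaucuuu
mmu-miR-410-3p (Mirg): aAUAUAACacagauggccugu

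H19, the maternally expressed RNA that shares enhancers with Igf2 and carries miR-675, was the highest member in both foot libraries. Its entry lies on chromosome 7, from 149761434 to 149764048 (mm9). H19 stood at 1012 FPKM (807 to 1407) and 1161 FPKM (962 to 1345) in the foot positive and negative libraries. For the back, the values were 343 FPKM (290 to 383) in the positive and 189 FPKM (154 to 252) in the negative library. Both foot values were above both back values, with no overlap of bounds. Foot over back was 1.32 ± 0.47 in the positive and 1.91 ± 0.44 in the negative fraction. Positive over negative was 0.04 ± 0.49 in the foot (-0.20 as deposited), with overlapping bounds. In the back it was 0.63 ± 0.42, with bounds that overlap after rescaling and not as deposited. H19 exceeded Igf2 by 2.36 times in the foot positive and 6.06 times in the foot negative library, against 1.72 and 1.28 times in the back positive and negative libraries.

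Cdkn1c encodes p57, a cyclin-dependent kinase inhibitor that stops the cell cycle, and is maternally expressed. The entry lies on chromosome 7, from 150644240 to 150646955 (mm9). Cdkn1c stood at 320 FPKM (304 to 337) in the foot positive and 966 FPKM (954 to 1002) in the foot negative library. Back libraries held 103 FPKM (99.4 to 108) in the positive and 225 FPKM (221 to 234) in the negative library. The positive library was the lower one in each skin, and each foot library was above its back counterpart. The log2 ratio of positive over negative was -1.35 ± 0.08 in the foot and -1.34 ± 0.07 in the back. Foot over back was 1.38 ± 0.09 in the positive and 1.39 ± 0.06 in the negative fraction. The 4 ratios come from only 4 values, so the likeness of the second pair follows from that of the first. Ranked by FPKM among about 21260 gene units per library, Cdkn1c was number 123 and 32 in the foot positive and negative libraries and number 315 and 109 in the back. Mast cell markers were also lower in the positive library of each skin (2.17 against 265 FPKM in the foot, 24.6 against 83.9 FPKM in the back), and their part in this difference was not tested.

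Other genes of the cluster around Cdkn1c were near 0. Phlda2, a maternally expressed restraint on placental growth, was listed at 0 in both foot libraries and stood at 0.472 and 0.548 FPKM in the back positive and negative libraries. Slc22a18 and Kcnq1 reached at most 0.320 and 0.130 FPKM. Ascl2, a transcription factor of the placenta, was listed at 0 in the foot negative and back positive libraries and reached 1.89 FPKM in the foot positive library. Nap1l4, a histone chaperone at the edge of the cluster, stood at 17.1 FPKM (14.3 to 20.01) and 26.7 FPKM (24.3 to 29.2) in the foot positive and negative libraries and at 26.2 FPKM (24.5 to 27.9) and 29.7 FPKM (27.8 to 31.6) in the back, below 2-fold in all 4 comparisons.

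Plagl1 (also called Zac1) encodes a paternally expressed zinc finger factor that, in mouse, regulates other imprinted genes including Igf2, H19 and Cdkn1c. Its entry lies on chromosome 10, from 12810497 to 12851500 (mm9). Plagl1 stood at 59.4 FPKM (57.9 to 73.4) and 122 FPKM (121 to 133) in the foot positive and negative libraries. The back had 5.52 FPKM (5.14 to 8.25) in the positive and 7.83 FPKM (7.56 to 11.2) in the negative library. Every foot value was far above every back value. Foot over back was 2.99 ± 0.39 in the positive and 3.13 ± 0.31 in the negative fraction. Positive over negative was -0.78 ± 0.20 in the foot and -0.64 ± 0.46 in the back, below 2-fold in each.

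Peg3, a paternally expressed zinc finger gene, went the opposite way from Plagl1 between the skins. Its entry lies on chromosome 7, from 6656603 to 6683132 (mm9). It stood at 26.9 FPKM (25.0 to 29.0) and 11.8 FPKM (10.7 to 12.9) in the foot positive and negative libraries. Back skin gave 59.5 FPKM (58.9 to 61.9) in the positive and 54.8 FPKM (53.9 to 56.7) in the negative library. Both back values were above both foot values, and the foot negative library was the lowest. Foot over back was -1.35 ± 0.11 in the positive and -2.80 ± 0.13 in the negative fraction. Positive over negative was 1.35 ± 0.16 in the foot and -0.10 ± 0.05 in the back, the second being 0.12 as deposited. The ratio of Peg3 to Plagl1 was 0.453 and 0.0965 in the foot positive and negative libraries, against 10.8 and 6.99 in the back positive and negative libraries.

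Usp29, also paternally expressed, starts 164 bases from Peg3 on the other strand in the RefSeq table (GRCm38), so that both genes are read outward from 1 short stretch. The entry under the name Usp29 does not reach that stretch. It lies on chromosome 7 from 6912794 to 6916480 (mm9), far from the Peg3 entry, so its values do not measure transcription from the shared start. It was listed at 0 in both foot libraries and stood at 0.0482 and 0.148 FPKM in the back positive and negative libraries. Zim1, the maternally expressed neighbour, stood at 0.804 and 1.19 FPKM in the foot positive and negative libraries and 3.45 and 1.17 FPKM in the back. The first sequence below is the stretch between the start sites of Peg3 and Usp29, and the second the 250 bases before the Plagl1 start that the table gives. They are shown because Peg3 and Plagl1 were past 2-fold in opposite directions between the skins in both fractions. Both are from RefSeq on GRCm38, 5′ to 3′ on the strand of the gene named, with CG dinucleotides (where DNA methylation falls) in capitals. The Peg3 stretch is chr7:6730420-6730582 on the minus strand and the Plagl1 stretch is chr10:13090582-13090831 on the plus strand.
Peg3: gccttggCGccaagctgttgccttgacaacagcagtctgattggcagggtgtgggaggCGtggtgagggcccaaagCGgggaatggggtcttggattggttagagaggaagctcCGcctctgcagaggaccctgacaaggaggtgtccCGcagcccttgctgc
Plagl1: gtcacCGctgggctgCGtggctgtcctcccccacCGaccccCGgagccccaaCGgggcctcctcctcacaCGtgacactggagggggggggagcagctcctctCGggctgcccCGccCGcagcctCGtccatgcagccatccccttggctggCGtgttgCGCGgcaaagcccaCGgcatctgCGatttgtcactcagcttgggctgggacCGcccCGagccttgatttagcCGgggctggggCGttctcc

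The Plagl1 window holds 19 CG dinucleotides in its 250 bases, and the 250 bases before the start of Peg3 hold 8, beside a median of 6 over 32851 promoter windows of that length. Windows were found for 31 of the 39 members, 48 windows in all, with a median of 10. The letters GGGGCCCC, searched as the core of the sequence described for the Plagl1 protein, are their own reverse complement, so 1 search covers both strands. They occur in 3 of the 48 member windows (1 each of Peg3, Ppp1r9a and Rasgrf1), beside 0.889% of all windows. The match in Peg3 lies outside the printed stretch. Such a match is a run of letters and not a shown binding site. Methylation and binding were not measured in these libraries.

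Mest, a paternally expressed gene of fetal mesenchyme that encodes an alpha/beta hydrolase fold protein, was abundant in all 4 libraries. It stood at 277 FPKM (269 to 296) and 583 FPKM (578 to 604) in the foot positive and negative libraries. For the back, the values were 357.4 FPKM (357.5 to 369, just above the value) and 253 FPKM (252 to 261) in the same order of fractions. The log2 ratio of positive over negative was -0.83 ± 0.08 in the foot and 0.28 ± 0.04 in the back, neither past 2-fold. Its maternally expressed neighbour Copg2 overlaps the Mest entry, and was listed at 0 in all 4 libraries with upper bounds of up to 4.27 FPKM. Copg2 encodes a coat protein of general use, so this 0 is given only as listed.

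Ndn, which encodes necdin, a growth suppressor of the Prader-Willi region, stood at 99.7 FPKM (82.0 to 101) and 177 FPKM (151 to 167, below the value) in the foot positive and negative libraries. Back libraries held 62.0 FPKM (59.4 to 65.5) in the positive and 37.9 FPKM (35.3 to 40.6) in the negative library. Foot was above back in both fractions, by a log2 ratio of 0.44 ± 0.15 for the positive and 1.497 ± 0.12 for the negative fraction. Other members of that region were low. Snrpn, which encodes a splicing protein, stood at 2.90 FPKM (1.74 to 4.06) and 5.05 FPKM (4.02 to 6.08) in the foot positive and negative libraries, and at 5.18 FPKM (4.57 to 5.80) and 5.43 FPKM (4.75 to 6.12) in the back. Ube3a, which encodes a ubiquitin ligase, stood at 5.84 FPKM (4.81 to 6.865) and 8.45 FPKM (7.61 to 9.28) in the foot, and at 5.97 FPKM (5.53 to 6.43) and 4.996 FPKM (4.54 to 5.46) in the back. Neither was past 2-fold in any comparison. Magel2, a relative of Ndn, lay between 0.312 and 1.09 FPKM, and the ring finger gene Mkrn3 between 0.229 and 0.696 FPKM.

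Sgce, which encodes epsilon-sarcoglycan of the cell membrane, stood at 48.6 FPKM (41.03 to 56.2) and 90.8 FPKM (84.6 to 97.3) in the foot positive and negative libraries, and at 37.7 FPKM (35.8 to 40.1) and 25.6 FPKM (23.5 to 27.6) in the back. The foot negative library was the high one, with foot over back at 0.12 ± 0.24 for the positive and 1.10 ± 0.15 for the negative fraction. Peg10, a gene of retrotransposon origin needed in the placenta that lies next to Sgce, stood at 4.90 FPKM (3.73 to 6.08) and 5.47 FPKM (4.73 to 6.22) in the foot positive and negative libraries, and at 5.65 FPKM (5.03 to 6.26) and 3.90 FPKM (3.31 to 4.47) in the back. Of the maternally expressed genes beyond it, Asb4 was listed at 0 in both foot libraries and reached 0.656 FPKM in the back, and Ppp1r9a reached 2.11 FPKM.

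Gnas, which encodes the stimulatory G protein alpha subunit and several transcripts of either parental copy, stood at 599 FPKM (573 to 630) and 1035 FPKM (1029 to 1071) in the foot positive and negative libraries. The back had 434 FPKM (431 to 449) in the positive and 1443 FPKM (1407 to 1503) in the negative library. The positive library was the lower one in each skin. Positive over negative was -0.55 ± 0.08 in the foot and -1.95 ± 0.06 in the back. By FPKM, Gnas was number 38 of 21264 gene units in the back positive library, against number 2 of 21263 in the back negative library. The entry joins transcripts of different start sites, so which of them differed was not measured.

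**Figure D3:**
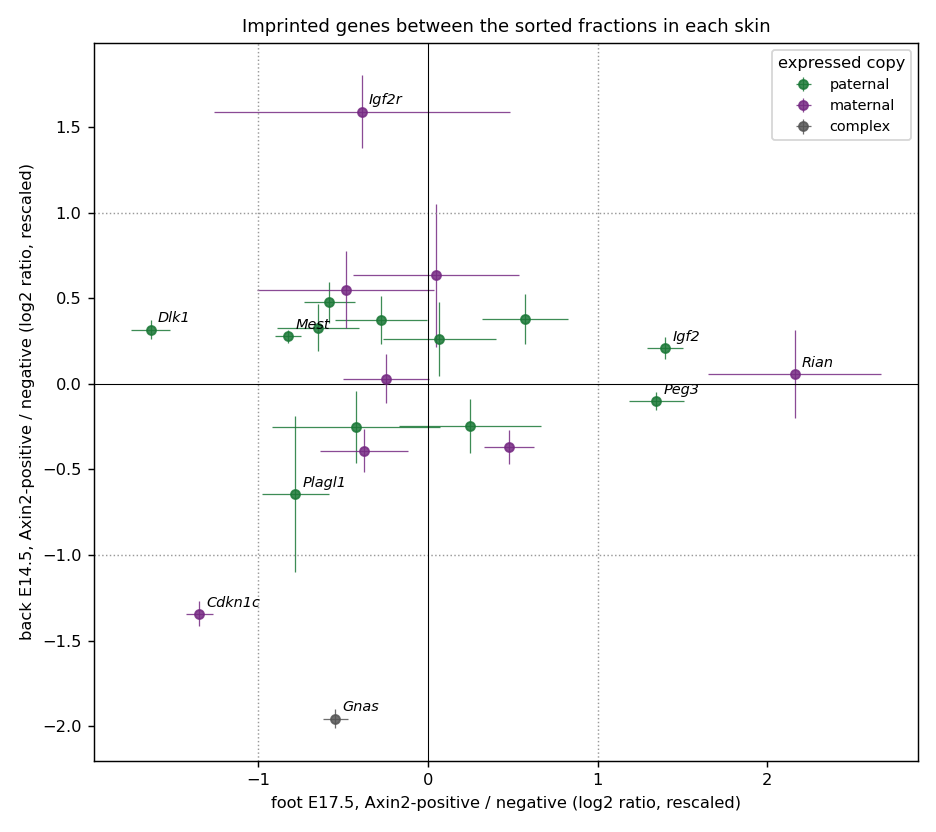
Log2 ratio of Axin2-positive over Axin2-negative in the foot (x axis) against the back (y axis) for 21 imprinted genes compared in both, with half-widths from the authors' bounds and dotted lines at 2-fold. Meg3, whose bounds were too wide, is not drawn. Cdkn1c lies past 2-fold on both axes, at -1.35 and -1.34, while Igf2, Peg3, Rian and Dlk1 lie past it in the foot alone and Igf2r and Gnas in the back alone.

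Among the remaining members, Nnat, a small membrane protein gene nested within Blcap, stood at 25.5 FPKM (19.05 to 32.4) and 25.3 FPKM (21.4 to 29.1) in the foot positive and negative libraries and at 31.3 FPKM (28.9 to 33.8) and 32.0 FPKM (29.6 to 34.7) in the back. Its log2 ratio of foot over back in the negative fraction, -1.01 ± 0.24, is past 2-fold after rescaling only and is -0.33 as deposited. Reads of Nnat and Blcap may not be separable where they overlap. Blcap stood at 9.58 FPKM (6.97 to 13.9) and 16.4 FPKM (13.7 to 19.1) in the foot positive and negative libraries, and at 13.6 FPKM (12.02 to 14.8) and 7.74 FPKM (6.74 to 8.89) in the back. Slc38a4, a paternally expressed amino acid transporter, stood at 8.13 FPKM (6.67 to 9.60) and 11.9 FPKM (10.7 to 13.2) in the foot positive and negative libraries and at 15.8 FPKM (14.8 to 16.8) and 10.3 FPKM (9.46 to 11.2) in the back, with foot over back at -1.10 ± 0.25 for the positive fraction. That value is -0.88 as deposited. Impact, a regulator of translation under stress, stood at 17.2 FPKM (14.6 to 19.7) and 13.3 FPKM (11.6 to 14.7) in the foot positive and negative libraries, and at 13.7 FPKM (12.9 to 14.9) and 8.87 FPKM (8.05 to 9.57) in the back. It was below 2-fold in all 4 comparisons. Zrsr1, a paternally expressed splicing factor gene nested in Commd1, stood at 5.29 FPKM (4.06 to 6.52) and 3.93 FPKM (3.26 to 4.61) in the foot positive and negative libraries and was listed at 0 in both back libraries. Commd1 stands only in a joined entry, and reads of Zrsr1 and Commd1 may not be separable where they overlap. The 0 of Zrsr1 is therefore given only as listed. Slc22a3 and Rasgrf1 were listed at 0 in both foot libraries and reached 0.184 and 0.619 FPKM in the back.

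Between foot and back, 24 members could be compared for the positive fraction and 22 for the negative fraction. For the positive fraction 6 were higher in the foot (H19, Rian, Cdkn1c, Plagl1, Grb10 and Zrsr1), beside 17.1% of all gene units, and 6 were lower (Igf2r, Dlk1, Meg3, Mirg, Peg3 and Slc38a4), beside 14.6%. These 12 are 50% of the members compared, beside 31.7%, and the bounds lay apart for 11 of them (all but Mirg), beside 29.4% of all gene units. Mirg is counted by its listed values, though no direction is read for it. Zrsr1 is counted on a back value given only as listed. For the negative fraction 5 were higher (H19, Cdkn1c, Ndn, Plagl1 and Sgce), beside 16.6%, and 3 were lower (Peg3, Gnas and Nnat), beside 12.0%. These 8 are 36.4%, beside 28.6%, with bounds apart for all 8, beside 28.0% of all gene units. As deposited, the split was 7 higher and 3 lower for the positive fraction, beside 22.2% and 11.1% of all gene units, with Igf2 added and Dlk1, Meg3 and Slc38a4 no longer past 2-fold. For the negative fraction it was 8 higher and 1 lower, beside 38.0% and 4.68%, with Dlk1, Mest and Grb10 added and Gnas and Nnat no longer past 2-fold.

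H19, Cdkn1c and Plagl1 were past 2-fold and higher in the foot in both fractions, and Peg3 was lower in both. These 4 are 18.2% of the 22 members compared in both, beside 13.4% of all gene units, and each is past 2-fold in the same direction as deposited too. The 2 comparisons share no library, but they share the site and the stage.

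**Figure D4:**
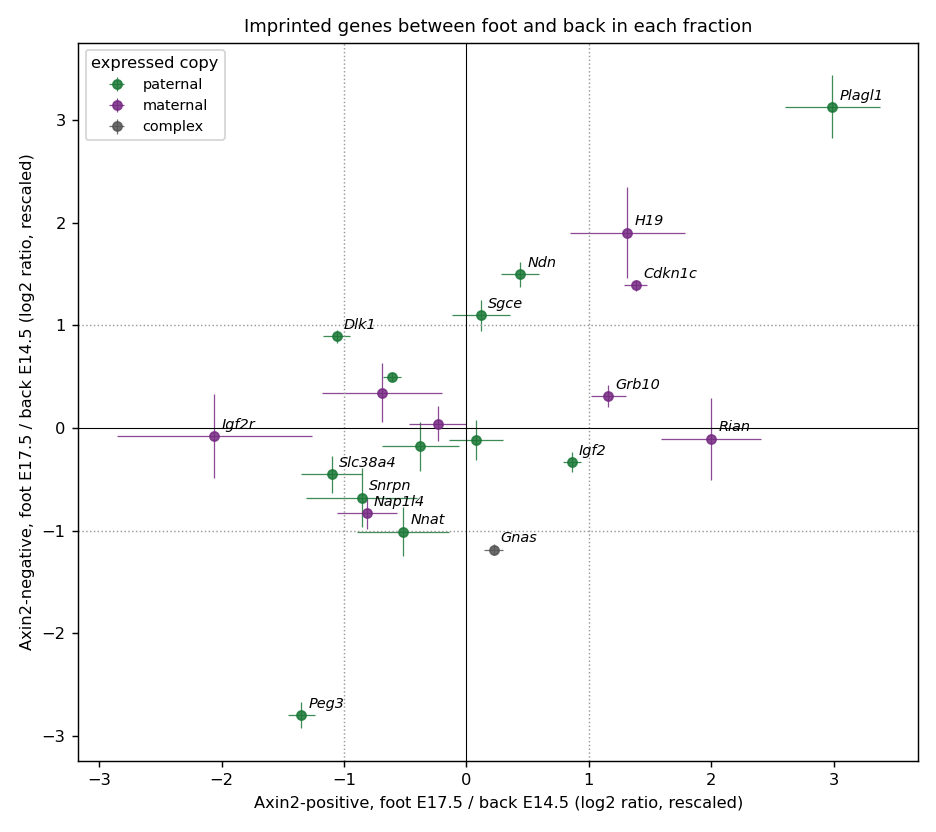
Log2 ratio of foot E17.5 over back E14.5 in the Axin2-positive fraction (x axis) against the Axin2-negative fraction (y axis) for 21 imprinted genes compared in both, with half-widths from the authors' bounds and dotted lines at 2-fold. Meg3 is not drawn because its bounds were too wide. Plagl1 lies at 2.99 and 3.13 and Peg3 at -1.35 and -2.80.

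Grouped by parental copy, the medians lay near 0 while single members ran far to both sides. Over the 15 paternally expressed members that reached 1 FPKM, the median log2 ratio was -0.14 between the foot fractions, 0.21 between the back fractions, 0.01 between foot and back for the positive and 0.08 for the negative fraction. Over the 13 maternally expressed members the medians were -0.25, 0.06, -0.24 and 0.04 in the same order of comparisons. The median over all 10529 such gene units was between -0.01 and 0.01 in each. As deposited, the median of the maternally expressed members for the negative fraction of foot over back is 0.66, where that of all gene units is 0.52. Paternally expressed members between the foot fractions ranged from -1.64 (Dlk1) to 1.40 (Igf2). For the positive fraction of foot over back, 5 of 13 paternally and 7 of 10 maternally expressed members compared were past 2-fold, beside 31.7% of all gene units. The 7 include Mirg, for which no direction is read, and Meg3, which is below 2-fold as deposited. For the negative fraction the counts were 5 of 12 and 2 of 9, beside 28.6%.

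**Figure D5:**
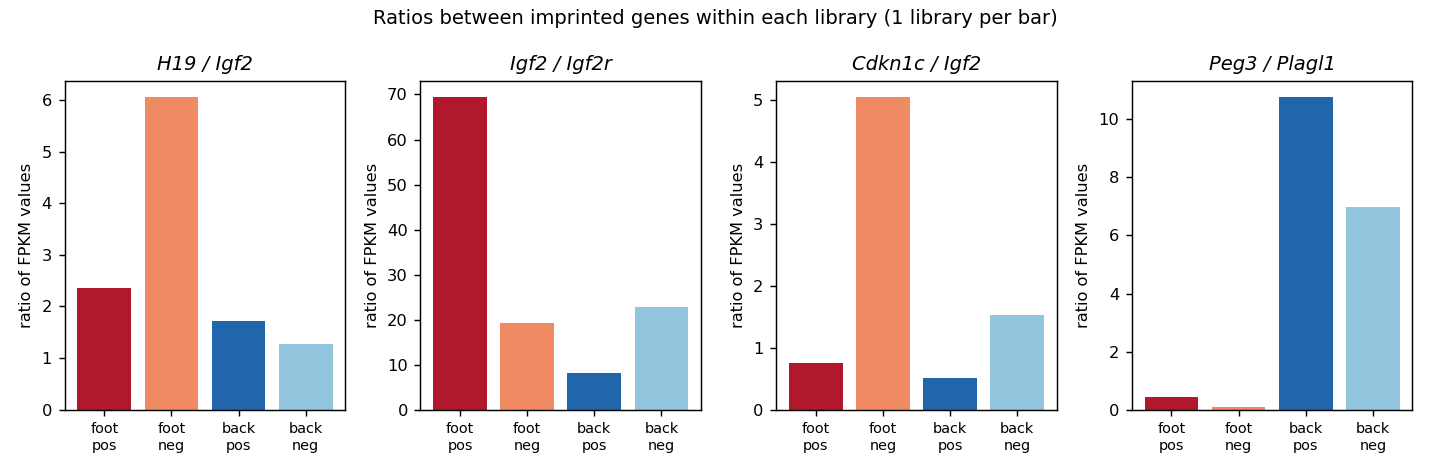
Ratios of FPKM between pairs of imprinted genes within each library, 1 bar per library, on axes that start at 0. Igf2 over Igf2r is 69.5 in the foot positive library and 8.07 in the back positive library, and Peg3 over Plagl1 is below 1 in both foot libraries and at least 6.99 in both back libraries. The 69.5 is imprecise, since that Igf2 value lies above its own bounds and the Igf2r bounds are wide.

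The level of Cdkn1c was 0.747 times that of Igf2 in the foot positive against 5.05 times in the foot negative library, and 0.518 times in the back positive against 1.53 times in the back negative library. In each skin the order of this growth factor and this cell cycle inhibitor was therefore opposite in the positive and the negative library. The ratio is taken within a library, so it does not depend on the rescaling.

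A further list of 44 imprinted genes outside the set had 36 with a value, of which 24 reached 1 FPKM in any library. Between the foot fractions 2 of 15 compared were lower in the positive library (Ddc and Inpp5f) and 0 were higher, beside 10.8% and 11.2% of all gene units, with a median of -0.03. The half-width of Ddc (1.42) exceeds its log2 ratio (-1.34), and Inpp5f was listed at 0 in the foot positive library. Nap1l5 stood at 7.89 FPKM in the foot positive library, against 0.820 FPKM in the foot negative and 1.56 FPKM in the back positive library. Its log2 ratios were 2.34 and 1.61, but it is left out of both counts for lack of status OK. Between the back fractions 0 of 11 were past 2-fold, beside 7.71%, with a median of 0.04. For the positive fraction of foot over back 3 of 14 were higher and 3 lower (median -0.14), beside 17.1% and 14.6%. In the negative fraction 6 of 16 were higher and 2 lower (median -0.26), beside 16.6% and 12.0%. As deposited these last counts are 8 higher and 1 lower, beside 38.0% and 4.68%.

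Qpct, an enzyme that modifies the ends of peptides, was the gene of this list with the largest log2 ratio between foot and back. It stood at 90.2 and 100.05 FPKM in the foot positive and negative libraries, against 7.15 and 4.47 FPKM in the back positive and negative libraries. Tfpi2, a protease inhibitor gene, stood at 5.57 and 5.29 FPKM in the foot and at 0.613 and 0.305 FPKM in the back, in the same order of fractions. Airn was higher in the foot as well, by a log2 ratio of 1.60 ± 0.73 in the positive and 1.93 ± 0.39 in the negative fraction. All 3 were past 2-fold in both fractions on either scaling.

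Of 15 genes that set or keep the marks of imprints, 13 had a value. For the positive fraction of foot over back 3 of 9 were lower in the foot (Ctcf, Zfp57 and Suz12) and 0 higher, beside 14.6% and 17.1% of all gene units, with a median of -0.41. As deposited Suz12 (-0.87) is below 2-fold, which leaves 2, and the half-width of Zfp57 (2.33) exceeds the size of its log2 ratio (-2.23). Ctcf, the insulator protein that separates Igf2 from the shared enhancers on the maternal copy, stood at 1.15 FPKM in the foot positive against 7.34 FPKM in the back positive library, a log2 ratio of -2.13 ± 1.28. In the negative fraction 4 of 10 were lower after rescaling (Dnmt3a, Ctcf, Dnmt1 and Trim28) and 0 higher, beside 12.0% and 16.6%, with a median of -0.35. As deposited 0 were lower and 1, Eed, was higher, beside 4.68% and 38.0%, so the 4 calls rest on the scaling. Dnmt1, which copies DNA methylation after replication, stood at 4.26 FPKM in the foot negative against 7.54 FPKM in the back negative library. Between the back fractions Suz12 was higher and Uhrf1 lower in the positive library, 1 each of 10, beside 4.28% higher and 3.43% lower of all gene units, with a median of -0.18. Uhrf1, the partner of Dnmt1, stood at 4.92 FPKM in the back positive against 10.2 FPKM in the back negative library, a log2 ratio of -1.13 ± 0.19 that is -0.91 as deposited. Between the foot fractions 1 of 9, Zfp57, was lower in the positive library, beside 10.8% of all gene units, with a half-width (2.39) above the size of its log2 ratio (-1.69), and the median was 0.35. Suz12 and Eed are named after their values were seen.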

How the data were processed

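Messenger RNA was measured in 4 libraries, 1 per group. Per the submitters' processing notes, the authors used TopHat and Cufflinks on mm9. Versions, settings and use of strand are not stated there. Each deposited value is in FPKM per gene or assembled locus, with 2 bounds (level not stated) and a status. Libraries were made with an Illumina mRNA kit, per the labels' protocols. Members had status OK throughout.

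Entries of 1 symbol were summed, names of small RNAs within an entry were dropped, and 20 of 22 symbols altered to dates in 1 table were restored. Background units were the 21328 coding or long noncoding genes by RefSeq symbol. FPKM were divided by median-ratio factors (1.09 and 1.28 for the foot positive and negative libraries, 0.918 and 0.787 for the back) from 3415 units of at least 5 FPKM in all libraries, which shifts log2 ratios by 0.24, -0.22, -0.24 and -0.71 in the 4 comparisons (foot fractions, back fractions, positive foot over back, negative foot over back). The pseudocount was 1, so ratios of low genes are understated. Half-widths combine both bounds in quadrature, relative to FPKM plus 1. Relative fragments came from 787 genes, assuming bounds of 2 Poisson standard deviations, and absolute depth is unknown. Coordinates are 1-based. Calculations used Python 3.11.15 with pandas 2.3.3 and numpy 2.4.6, and were tested on simulated data. Members of at least 5 FPKM are named with all values and others by range or in short. Of each other list at most the 6 largest genes past 2-fold are named. Members and lists were chosen with earlier results of these data known.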

Additional observations from a re-analysis of the deposited data

How the results depend on the processing

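No test across replicates exists, and no paired analysis was possible because each group holds 1 library. No library could be left out for the same reason. With FPKM as deposited instead of rescaled, members past 2-fold and lower in the positive library of the foot numbered 4 instead of 2. Those lower in the foot numbered 3 instead of 6 for the positive fraction. For the negative fraction they numbered 1 instead of 3 lower, and 8 instead of 5 higher, and the median of maternally expressed members was 0.66 instead of 0.04. The scaling shifts log2 ratios by -0.71 in that comparison. The other counts stayed within 1.5 times, and the other medians within 0.5, of the values reported under as-deposited FPKM, a pseudocount of 0.1, a minimum of 1 FPKM in place of 5, members of at least 5 FPKM, and genes above 0 in both libraries. At the midpoint of the bounds Mirg gave 5.04 instead of -1.48 (foot over back, positive fraction), and Meg3 was -2.05 between the foot fractions (-0.07 as reported) and 0.33 between the back fractions, no longer past 2-fold. Mirg between the back fractions was -2.82 at the midpoint instead of 0.35. Among members of at least 5 FPKM the median of paternally expressed members was -0.37 (0.01 as reported) between foot and back for the positive fraction. Of 92 single-member ratios, 81 kept their side of 2-fold as deposited, 91 with a pseudocount of 0.1 and 88 at the midpoint of the bounds. Taking the highest entry per symbol changed no member, since each had 1 entry. The as-deposited counts of the other gene lists were added after seeing the data.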
